A study of Mus musculus with 10 samples.

Results

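The genes described here are 95 nuclear genes of oxidative phosphorylation, out of 17603 mouse genes with a value. They were taken by name: every symbol that starts with Nduf, Uqcr, Atp5 or Cox4 to Cox8, plus Sdha, Sdhb, Sdhc, Sdhd, Cyc1 and Cycs. Complex I has 38 of them, with 8 further assembly factors of complex I (the Ndufaf genes). Complex II has 4, complex III has 9, cytochrome c has 1, complex IV has 18 and complex V has 17. The rule uses no measured value. The subunits encoded in mitochondrial DNA are outside the rule.

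RNA-seq libraries were made from cells labelled EPC, an abbreviation that the labels do not spell out, sorted by flow cytometry. The mice were female C3H/HeN of wild-type genotype and carried tumors grown from injected SCC7 cells, a mouse squamous carcinoma line. The 10 libraries form 3 groups: CD45+ cells from the tumor (4 libraries), CD45+ cells from the spleen (3) and CD45- cells from the spleen (3). CD45, the product of Ptprc, is the surface protein carried by nearly all leukocytes. Every group came from tumor-bearing mice, so none is a tumor-free control, and neither the age of the mice nor whether each library is 1 mouse is given. The p-values below therefore measure the spread between these libraries.

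Oxidative phosphorylation passes electrons from NADH through complex I, or from succinate through complex II, to ubiquinone, then through complex III and cytochrome c to complex IV, which reduces oxygen. Complexes I, III and IV pump protons out of the mitochondrial matrix, and complex V, the ATP synthase, lets them back in to make ATP. Red cell precursors need mitochondria for haem and lose them as they mature into red cells, whereas macrophages keep theirs.

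The values are FPKM, in which fragments are divided by transcript length and by library depth, summed over the transcript models of each gene. Depth was estimated at 17800000 to 20800000 fragments a library. Globin transcripts held 10.5, 1.89, 1.82 and 1.87% of the summed FPKM in the tumor CD45+ libraries, 42.7, 29.6 and 52.4% in the splenic CD45+ libraries, and 62.8 to 63.8% in the splenic CD45- libraries. Because globin mRNA takes up so different a share, each comparison is given on the deposited scale and again with the globins removed and the rest scaled to a common sum of 1000000 (the globin-free scale). Tests of single genes used limma on log2(FPKM + 1) with Benjamini-Hochberg adjustment over every gene tested. A gene was tested when 3 or more libraries of the comparison reached 1 FPKM, and is called when its adjusted p is below 0.05. Changes are differences of log2(FPKM + 1), so those of genes near 0 FPKM come out too small.

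The sorted label was checked against marker genes. Of 10 erythroid markers, 2, Tfrc and Alas2, reached 1 FPKM in every tumor CD45+ library, and the markers summed to 58.9 to 244.8 FPKM there. All 10 were at 1 FPKM or more in every splenic library, with sums of 6729 to 7371 FPKM in the splenic CD45+ libraries and 12323 to 12927 FPKM in the splenic CD45- libraries. All 9 monocyte and macrophage markers were at 1 FPKM or more in each tumor CD45+ library, with sums of 20601 to 40207 FPKM, against 1369 to 3853 FPKM in the splenic CD45+ libraries and 50.3 to 97.6 FPKM in the splenic CD45- libraries. Granulocyte markers summed to 46.0 to 1712 FPKM in tumor CD45+, 22719 to 75738 FPKM in splenic CD45+ and 385.0 to 515.0 FPKM in splenic CD45- libraries. Ptprc was at 59.4 to 92.5 FPKM in the tumor CD45+ libraries, at 39.2 to 265.5 FPKM in the splenic CD45+ libraries and at 1.63 to 2.57 FPKM in the splenic CD45- libraries, in the order of the CD45 gate. The tumor CD45+ libraries also held Krt8 and Krt18 and 4 of 4 stromal markers, with list sums of 310.5 to 403.3 FPKM for epithelium (Krt5, Krt14 and Epcam at 0 to 0.13 FPKM) and 119.4 to 186.1 FPKM for stroma. Splenic sums were at most 2.37 FPKM for epithelium and 1.86 FPKM for stroma. B cell markers summed to 1.45 to 3.57 FPKM in tumor CD45+, 127.3 to 1144 FPKM in splenic CD45+ and 23.0 to 28.55 FPKM in splenic CD45- libraries, and T and NK cell markers to 4.82 to 37.0 FPKM, 36.8 to 247.8 FPKM and 4.05 to 5.55 FPKM in the same groups. Megakaryocyte markers summed to 593.7 to 859.6 FPKM in tumor CD45+, 18.3 to 28.9 FPKM in splenic CD45+ and 33.8 to 37.1 FPKM in splenic CD45- libraries, and endothelial markers to 6.57 to 8.05 FPKM, 3.28 to 37.0 FPKM and 0.34 to 0.57 FPKM in the same groups. Pf4 made nearly all of the tumor megakaryocyte sum, at 592.5 to 858.9 FPKM. Gp9 and Itga2b ran the other way, at 0 to 0.29 FPKM in tumor CD45+ and 1.30 to 34.2 FPKM in the spleen. Pecam1 made nearly all of the splenic CD45+ endothelial sum, at 3.21 to 36.5 FPKM. Cdh5 and Kdr were higher in tumor CD45+, at 1.97 to 3.78 FPKM against at most 0.32 FPKM in the spleen. Lists moved with each of the 3 comparisons below, and their part in the results was not tested. In bulk libraries, fewer cells of a type and less RNA per cell cannot be told apart.

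A pair of libraries stood apart from the rest of their groups. Replicate 2 of splenic CD45+ was the highest of its group in 82 of 89 members (92.1%, against 49.2% of all genes), at a median of 1.62 times the mean of replicates 1 and 3, and it had the lowest globin share and the lowest Ptprc of its group. Replicate 1 of tumor CD45+ was the highest of its group in 72 of 93 members (77.4%, against 25.8% of all genes), at a median of 1.18 times the mean of replicates 2 to 4, and it had the highest globin share and the highest S100a8, a neutrophil gene, at 1060 FPKM against 17.6 to 23.9 FPKM in the other tumor libraries. Tumor CD45+ replicates 2 and 3 differed only a little more than counting noise (median chi-square per gene 0.720, where counting alone gives 0.455) and were kept as separate libraries. Replicate 4 was also close to them, at 1.56 and 1.42. Pairs with tumor replicate 1 gave 12.6 to 13.3, and splenic pairs 2.22 to 67.7. Whether tumor replicates 2 to 4 are separate mice is not given. If they are repeats of 1 sample, the p-values of the tumor comparisons are too small.

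**Figure D1:**
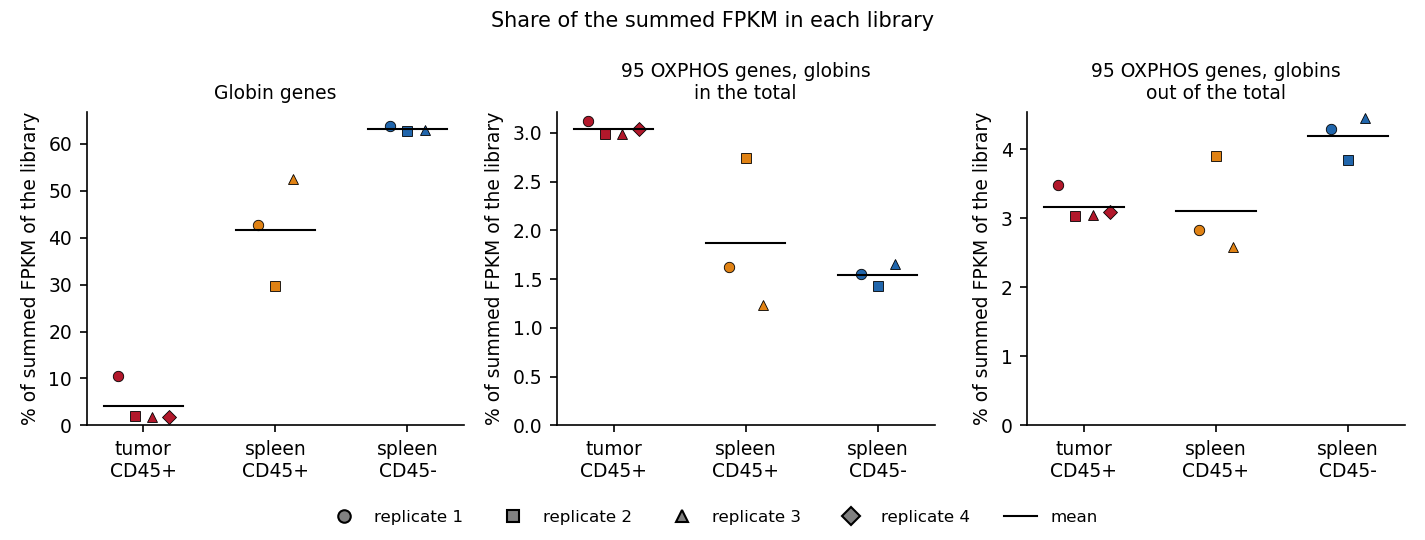
Each panel plots, for each of the 10 libraries, a share of the summed FPKM in percent, with tumor CD45+ on the left, splenic CD45+ in the middle and splenic CD45- on the right. Globins took 4.02% of the tumor CD45+ libraries on average, 41.6% of splenic CD45+ and 63.2% of splenic CD45-; the members' share averaged 3.03, 1.87 and 1.55% with globins in the total, and 3.17, 3.11 and 4.20% without them.

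The order of the groups by their summed oxidative phosphorylation transcripts depended on how the sum was scaled. With globins in the total, the members took 3.03% ± 0.0648 of the summed FPKM in tumor CD45+ libraries (SD, n = 4), 1.87% ± 0.785 in splenic CD45+ libraries (SD, n = 3) and 1.55% ± 0.114 in splenic CD45- libraries (SD, n = 3). Without globins the shares were 3.17% ± 0.216 in tumor CD45+, 3.11% ± 0.696 in splenic CD45+ and 4.20% ± 0.321 in splenic CD45- libraries. Of these shares, that of splenic CD45- was lowest on average with globins counted and highest without. In deposited FPKM, whose library totals differ, the members summed to 25474 ± 3022 in tumor CD45+ (SD, n = 4), 18154 ± 5145 in splenic CD45+ (SD, n = 3) and 20259 ± 1831 in splenic CD45- libraries (SD, n = 3), with splenic CD45+ lowest on average. On the globin-free scale, tumor CD45+ (3.04 to 3.49%) lay within the range of splenic CD45+ (2.59 to 3.90%) and wholly below splenic CD45- (3.84 to 4.46%). Splenic CD45+ replicate 2, at 3.90%, was the library of its group that overlapped the splenic CD45- range.

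The complexes did not hold equal shares of that sum, and these shares do not depend on the globin total. Complex I held 24.6% ± 0.345 of the members' FPKM in tumor CD45+ (SD, n = 4), 23.0% ± 0.498 in splenic CD45+ (SD, n = 3) and 21.5% ± 0.645 in splenic CD45- libraries (SD, n = 3), and the ranges of the 3 groups did not overlap. The assembly factors of complex I ran in the same order, with 0.603% ± 0.0320 in tumor CD45+, 0.465% ± 0.0393 in splenic CD45+ and 0.285% ± 0.0220 in splenic CD45- libraries, again with no overlap. Complex III ran the other way, with 8.77 to 9.44% in tumor CD45+ libraries, below the 10.2 to 10.5% of splenic CD45+ and the 9.86 to 11.8% of splenic CD45- libraries. Complex IV was at 27.5 to 28.3% in tumor CD45+, 27.5 to 28.0% in splenic CD45+ and 29.7 to 30.5% in splenic CD45- libraries, so that only splenic CD45- lay apart. Complex II held 1.57 to 1.85% in tumor CD45+ and 1.65% in each splenic CD45+ library, above the 1.04 to 1.25% of splenic CD45-. Complex V, the largest share, was at 35.1 to 36.4% in tumor CD45+, 36.3 to 37.1% in splenic CD45+ and 35.9 to 36.6% in splenic CD45- libraries, with overlapping ranges. These shares are sums over the chosen genes and were given no test.

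Tissues were compared within the CD45+ gate by setting tumor CD45+ against splenic CD45+ libraries. Here 43 of 93 members tested were called higher, where 37.7% of all genes tested were, and 2 were called lower, where 26.0% of all genes were. On the globin-free scale 21 were called higher and 11 lower, where 25.8 and 37.5% of all genes were. The 21 higher and the 2 lower calls stood on both scales. Cox4i2, Cox7a1 and Ndufa4l2 passed the filter through tumor libraries only or nearly so, and could hardly be called other than higher. The median change of the 93 members was 0.53 on the deposited and 0.07 on the globin-free scale, against 0.20 and -0.22 over all genes tested, a distance of 0.33 and 0.28. Over the 8938 genes at 1 FPKM or more in every library of both groups, a pool that no gene enters through 1 group alone, the medians on the deposited scale were 0.50 for 89 members and 0.09 for all. The groups did not overlap for 43 members that lay above and 2 that lay below, where 38.4 and 28.1% of all genes did. Without globins these were 24 and 15, where 26.7 and 40.1% of all genes did. Scaled to a common sum with globins left in, 48 members were called higher and 1 lower, where 40.9 and 17.1% of all genes were. Trimmed-mean scaling gave 52 higher and 2 lower, where 40.1 and 26.1% of all genes were. Without splenic CD45+ replicate 2, 76 members were called higher and 2 lower on the deposited scale, and 38 higher and 11 lower on the globin-free scale. Without tumor CD45+ replicate 1, the deposited scale gave 36 higher and 1 lower, and the globin-free scale 17 higher and 9 lower. Shares of all genes called in these fits without a library are not given, so their counts do not compare the members with other genes.

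Tumor CD45+ against splenic CD45- libraries differ in tissue and in CD45 gate together, and the parts of each cannot be told apart. Of 93 members tested, 57 were called higher, against 67.5% of all genes, and 9 lower, against 22.5% of all genes. Cox4i2, Cox6a2, Cox7a1, Ndufa4l2 and Ndufaf5 were below 1 FPKM in every splenic CD45- library, so they entered this comparison through the tumor libraries where they were high. On the globin-free scale 27 were called higher and 42 lower, against 54.0 and 33.8% of all genes, and 8 members were called higher on 1 scale and lower on the other. Scaled to a common sum with globins left in, 84 were called higher and 2 lower, where 77.0 and 14.0% of all genes were. Trimmed-mean scaling gave 29 higher and 26 lower, where 57.6 and 31.5% of all genes were. The groups did not overlap for 56 members that lay above and 9 below, where 66.5 and 22.2% of all genes did, and without globins for 27 and 41, where 52.7 and 33.5% did. The median change of the members was 0.54 deposited and -0.19 globin-free, against 1.06 and 0.55 over all genes tested. Over the 7267 genes at 1 FPKM or more in every library of both groups, however, the deposited medians were 0.48 for 88 members and 0.47 for all genes. Over the 8049 genes that reached 1 in every library on the globin-free scale, the members still lay lower. Their median there was -0.24 for 89 members, against -0.03 for all genes. Without tumor CD45+ replicate 1, 56 members were called higher and 12 lower on the deposited scale, and 27 higher and 44 lower on the globin-free scale. Shares of all genes are not given for these fits. This comparison shares its tumor libraries with the one before, and the next shares its splenic libraries with both.

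In splenic CD45+ against splenic CD45- libraries, a comparison of the CD45 gate within the spleen, few members were called: 8 higher and 3 lower of 89, where 50.5 and 5.02% of all genes were. The marker lists differed here too, with granulocyte sums of 22719 to 75738 FPKM in splenic CD45+ and 385.0 to 515.0 FPKM in splenic CD45- libraries and erythroid sums of 6729 to 7371 FPKM in splenic CD45+ and 12323 to 12927 FPKM in splenic CD45- libraries, and their part was not tested. On the globin-free scale 5 were called higher and 14 lower of 90, where 42.5 and 8.66% of all genes were. The median change of the members was 0.01 deposited and -0.24 globin-free, against 0.67 and 0.51 over all genes tested. Without replicate 2 of splenic CD45+, 9 members were called higher and 30 lower on the deposited scale, and 7 higher and 46 lower on the globin-free scale. Shares of all genes are not given for these fits, so their counts do not compare the members with other genes. By complex, the deposited calls were 2 higher and 2 lower of 37 in complex I (globin-free 2 and 5), 1 and 1 of 13 in complex IV (globin-free 0 and 4 of 14), and 1 and 0 of 17 in complex V (globin-free 0 and 4). Under trimmed-mean scaling 3 members were called higher and 43 lower, where 31.2 and 18.4% of all genes were. Scaled to a common sum with globins left in, 13 were called higher and 0 lower by limma, where 57.4 and 1.24% of all genes were, with 0 lower also at an unadjusted p below 0.05. The groups did not overlap for 13 members that lay above and 4 below, where 59.0 and 7.24% of all genes did, and without globins for 8 and 25, where 50.7 and 12.0% did.

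**Figure D2:**
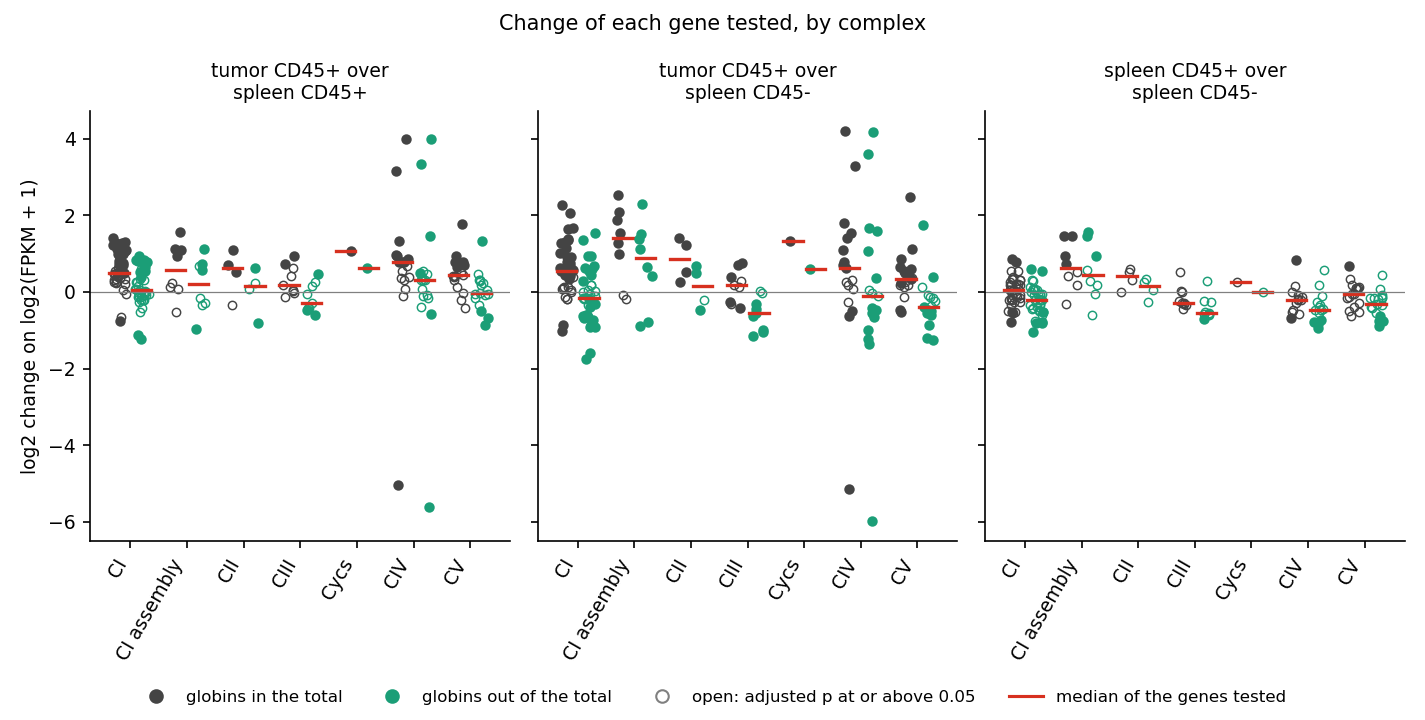
Each point is a gene, placed by complex on the horizontal axis and by its change in log2(FPKM + 1) on the vertical axis, in 1 panel per comparison; filled points were called and red lines are medians. Dark points are the deposited scale and green points the globin-free scale. The median change over all members was 0.53 deposited and 0.07 globin-free for tumor CD45+ over splenic CD45+, 0.54 and -0.19 for tumor CD45+ over splenic CD45-, and 0.01 and -0.24 for splenic CD45+ over splenic CD45-.

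Of the 38 subunits of complex I, the entry point of NADH into the chain, 37 were tested, and they did not move as 1 block. They had 17 called higher and 1 lower in tumor CD45+ over splenic CD45+ (globin-free 10 and 2), where 37.7 and 26.0% of all genes were. In tumor CD45+ over splenic CD45- they had 25 higher and 2 lower (globin-free 10 and 15), the higher calls at a share near the 67.5% of all genes, where 22.5% were lower. The same shares of all genes stand behind the counts of the other complexes. Ndufv3, a small accessory subunit of the NADH-oxidising arm, had 218, 161, 174 and 205 FPKM in tumor CD45+, 64.0, 81.2 and 68.5 FPKM in splenic CD45+ and 44.6, 33.1 and 38.5 FPKM in splenic CD45-. Its 3 groups did not overlap. It rose by 1.40 (SE 0.17, limma adjusted p = 2.36e-04) in tumor CD45+ over splenic CD45+ and by 2.26 (SE 0.14, limma adjusted p = 2.79e-07) over splenic CD45-. It also rose in splenic CD45+ over splenic CD45-, by 0.87 (SE 0.20, limma adjusted p = 8.25e-03), and all 3 calls held on the globin-free scale. Ndufb5, an accessory subunit of the membrane arm, had 171, 133, 139 and 141 FPKM in tumor CD45+, 52.5, 75.9 and 53.9 FPKM in splenic CD45+ and 34.9, 30.5 and 37.3 FPKM in splenic CD45-. The 3 groups stood in the same order without overlap, with changes of 1.27 (SE 0.18, limma adjusted p = 5.76e-04) and 2.06 (SE 0.11, limma adjusted p = 1.18e-07) for tumor CD45+ over splenic CD45+ and over splenic CD45-. Exons of Ndufb5 overlap those of Mrpl47 on the other strand over 530 bases, and no strand setting is given, so reads there could belong to either.

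Of the arm that oxidises NADH, Ndufv1 and Ndufs1 were each called lower in 1 tumor comparison on the deposited scale. Ndufv1, which binds NADH and the flavin, had 63.5, 54.2, 53.0 and 48.3 FPKM in tumor CD45+, 72.5, 150.2 and 59.4 FPKM in splenic CD45+ and 123, 112 and 98.5 FPKM in splenic CD45-. The tumor CD45+ values lay wholly below those of splenic CD45-, at -1.01 (SE 0.11, limma adjusted p = 2.44e-05). Against splenic CD45+ the change was -0.66 (SE 0.31, limma adjusted p = 0.0929) on the deposited scale and was called only on the globin-free scale, at -1.13 (limma adjusted p = 8.12e-03). Ndufs1, the large iron-sulfur subunit beside it, had 26.8, 29.3, 30.7 and 32.8 FPKM in tumor CD45+, 40.7, 82.5 and 39.0 FPKM in splenic CD45+ and 27.6, 37.6 and 38.2 FPKM in splenic CD45-. It fell in tumor CD45+ against splenic CD45+, at -0.75 (SE 0.27, limma adjusted p = 0.0387), with no overlap. That call held in only 3 of 7 fits that left out 1 library. Against splenic CD45- the change of Ndufs1 was -0.19 on the deposited scale (limma adjusted p = 0.184), 0.44 when scaled to a common sum, and -0.91 on the globin-free scale, where it was called (limma adjusted p = 3.28e-04). Ndufv2, an iron-sulfur subunit of the same arm, did not share the direction on the deposited scale. It had 119, 83.1, 86.1 and 106 FPKM in tumor CD45+, 53.5, 113 and 73.2 FPKM in splenic CD45+ and 69.1, 63.1 and 93.9 FPKM in splenic CD45-, with changes of 0.35 over splenic CD45+ and 0.39 over splenic CD45- (limma adjusted p = 0.28 and 0.0561), and -0.11 and -0.34 on the globin-free scale, none of them called.

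Ndufb9, a membrane-arm accessory subunit, had the highest mean of the complex I genes, with 328, 241, 241 and 227 FPKM in tumor CD45+, 219, 392 and 222 FPKM in splenic CD45+ and 515, 436 and 441 FPKM in splenic CD45-. All tumor CD45+ values were below those of splenic CD45-, at -0.85 (SE 0.14, limma adjusted p = 3.32e-04), and the gene was also called lower in splenic CD45+ over splenic CD45-, at -0.79 (SE 0.26, limma adjusted p = 0.0346). Between tumor CD45+ and splenic CD45+ its change was -0.06 (limma adjusted p = 0.85). Ndufb11, another membrane-arm subunit, had 239, 162, 158 and 160.1 FPKM in tumor CD45+, 127, 147 and 149 FPKM in splenic CD45+ and 213, 178 and 216 FPKM in splenic CD45-. The splenic CD45+ values were all below those of splenic CD45-, at -0.52 (SE 0.18, limma adjusted p = 0.0396). In the splenic comparison the calls of Ndufb9 and Ndufb11 each held in only 1 of 6 fits that left out a library, the fit without splenic CD45+ replicate 2.

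**Figure D3:**
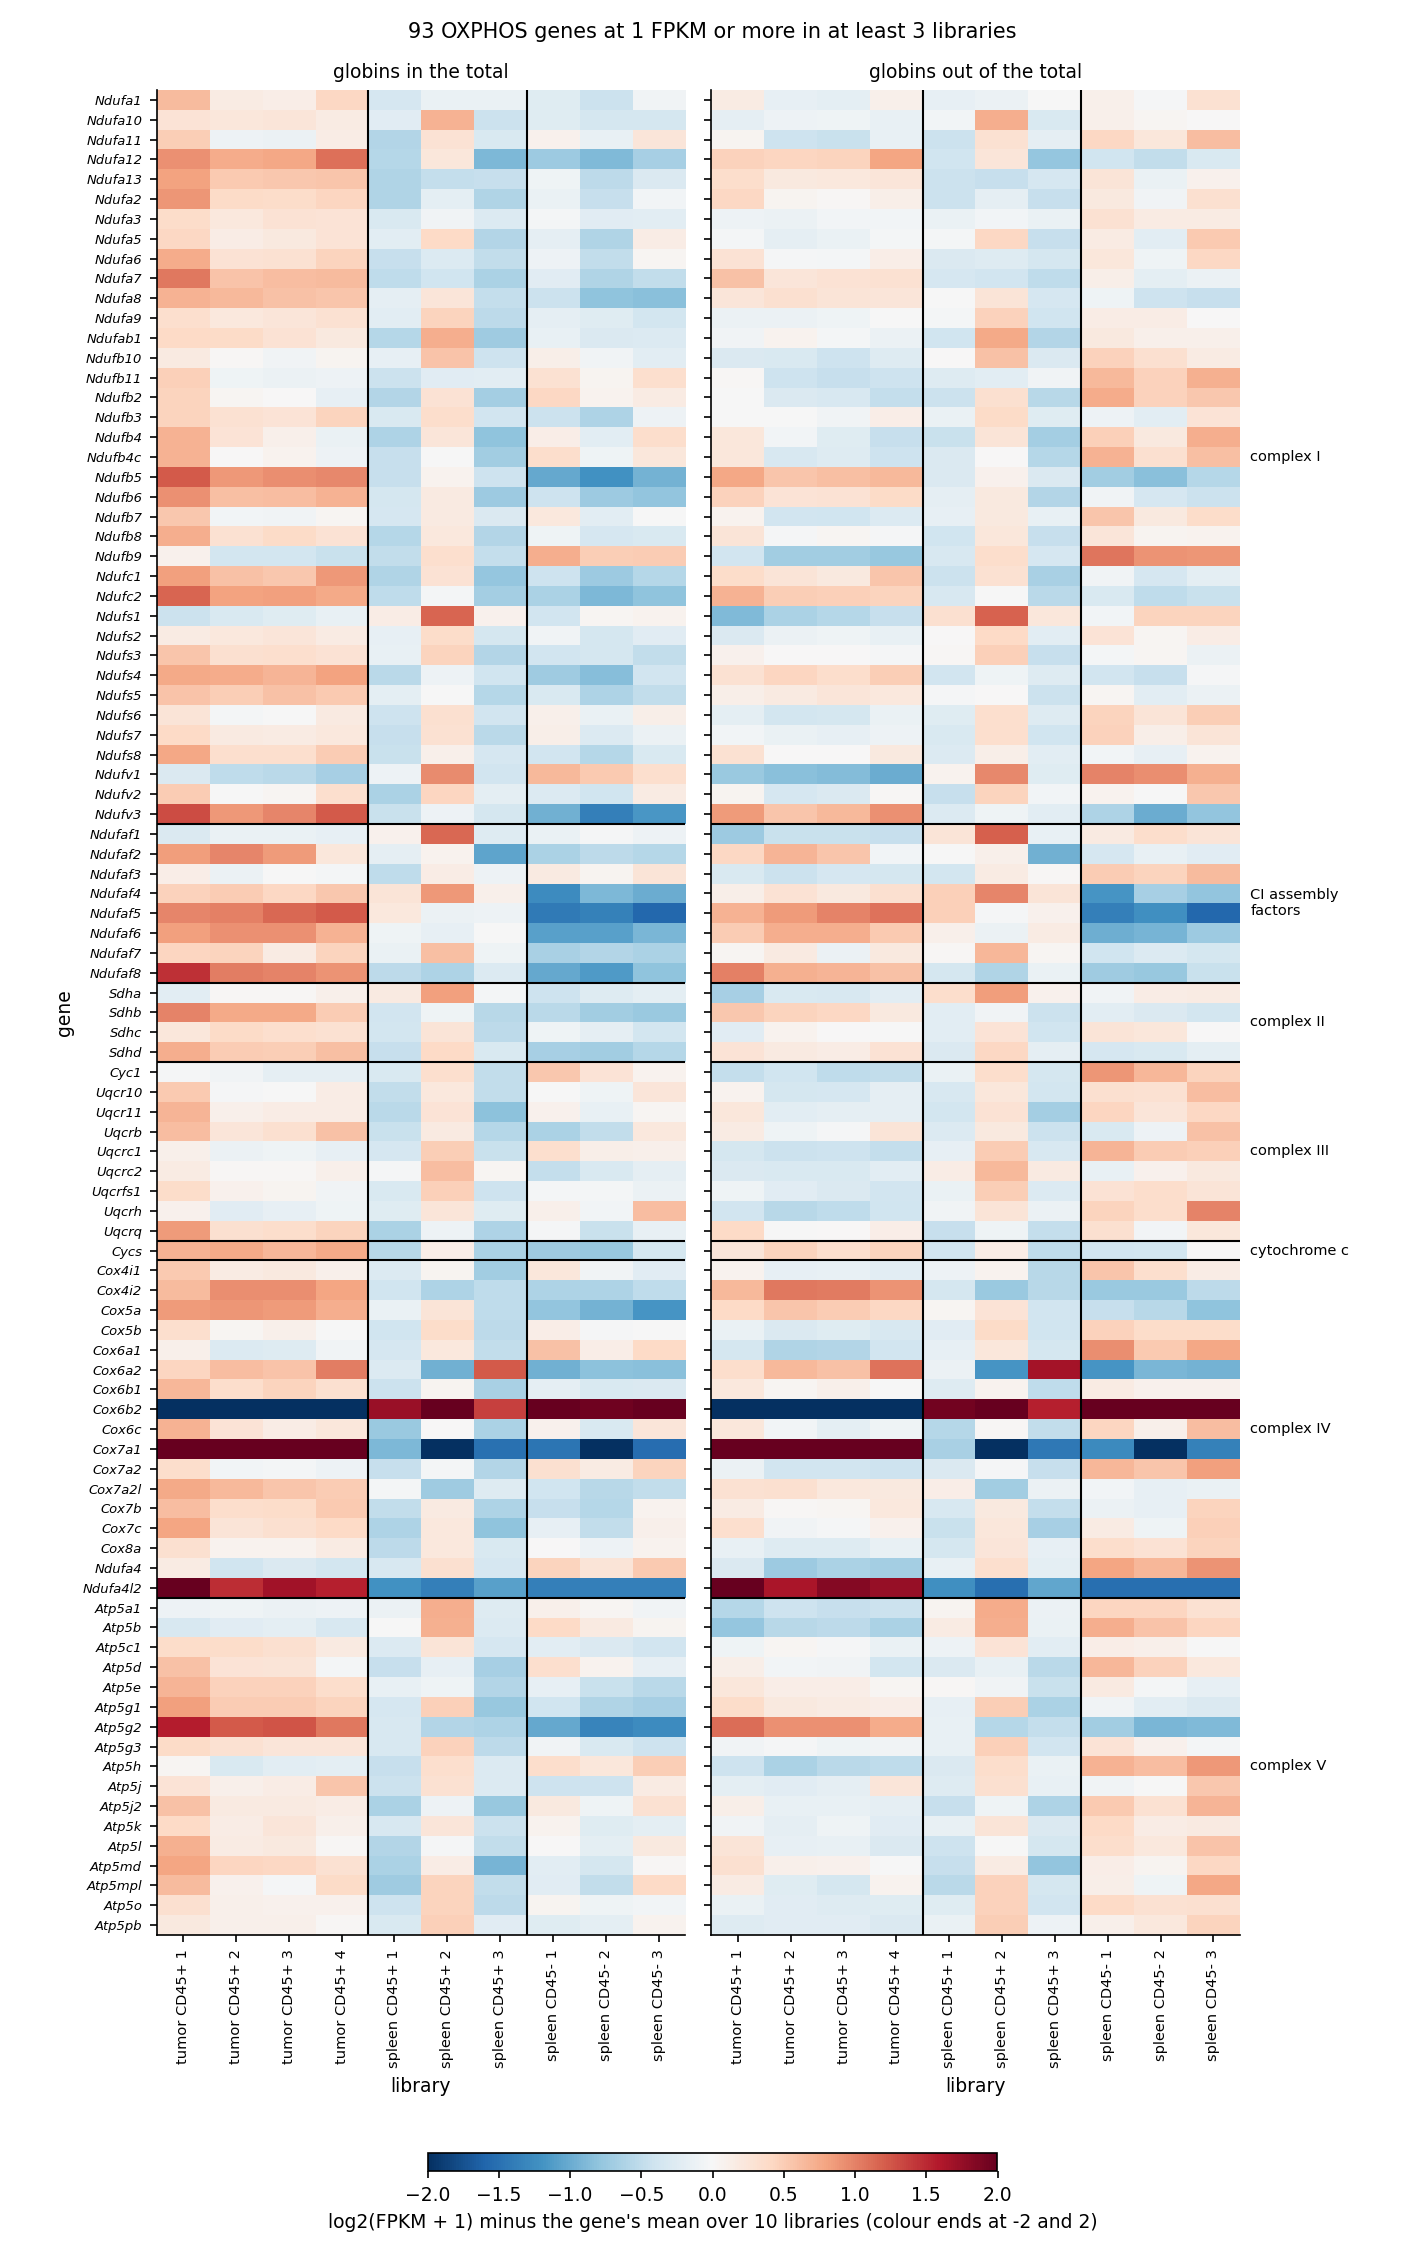
Rows are the 93 genes that reached 1 FPKM in 3 or more libraries, grouped by complex, and columns are the libraries, tumor CD45+ first, then splenic CD45+ and splenic CD45-. Colour is the log2(FPKM + 1) of a gene minus its mean over the libraries and ends at 2 in each direction, with the deposited scale on the left and the globin-free scale on the right. Splenic CD45+ replicate 2 is redder than its neighbours in most rows, as the highest of its group in 82 of 89 genes.

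The assembly factors of complex I, proteins that help build it and are not part of the finished enzyme, had lower FPKM than most subunits, and several of them separated the groups. In splenic CD45+ over splenic CD45-, 4 of the 8 were called higher and 0 lower (globin-free 3 and 0), a share of higher calls near the 50.5% of all genes (globin-free 42.5%). In tumor CD45+ over splenic CD45+, 4 were called higher and 0 lower (globin-free 3 and 1), and in tumor CD45+ over splenic CD45-, 6 higher and 0 lower (globin-free 6 and 2). Ndufaf5, which hydroxylates a core subunit during assembly, had 8.28, 8.52, 9.51 and 10.1 FPKM in tumor CD45+, 4.51, 3.37 and 3.42 FPKM in splenic CD45+ and 0.77, 0.86 and 0.59 FPKM in splenic CD45-. The 3 groups were far apart relative to their spread. Since every splenic CD45- library was below 1 FPKM, Ndufaf5 was tested against that group only through the libraries where it was high. Ndufaf5 rose by 1.09 (SE 0.15, limma adjusted p = 5.41e-04) in tumor CD45+ over splenic CD45+, by 2.54 (SE 0.10, limma adjusted p = 1.02e-08) over splenic CD45-, and by 1.45 (SE 0.20, limma adjusted p = 1.53e-03) in splenic CD45+ over splenic CD45-. Ndufaf6, needed to build an early intermediate, had 6.57, 7.08, 7.13 and 5.99 FPKM in tumor CD45+, 3.05, 2.82 and 3.26 FPKM in splenic CD45+ and 1.02, 1.03 and 1.27 FPKM in splenic CD45-. It followed the same order without overlap, with changes of 0.93, 1.87 and 0.94 in the same 3 comparisons (limma adjusted p = 5.83e-04, 4.51e-08 and 4.29e-03).

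Ndufaf4 and Ndufaf8 split this pattern. Ndufaf4 had 5.80, 6.03, 5.63 and 6.18 FPKM in tumor CD45+, 4.94, 8.07 and 4.29 FPKM in splenic CD45+ and 1.07, 1.66 and 1.50 FPKM in splenic CD45-. Tumor CD45+ and splenic CD45+ overlapped, at 0.07 (SE 0.20, limma adjusted p = 0.779). Both lay above splenic CD45-, splenic CD45+ by 1.46 (SE 0.26, limma adjusted p = 3.29e-03). Ndufaf8, the assembly factor with the highest mean, had 104, 77.1, 75.6 and 70.4 FPKM in tumor CD45+, 25.9, 24.1 and 30.9 FPKM in splenic CD45+ and 17.8, 16.6 and 21.0 FPKM in splenic CD45-. Here tumor CD45+ lay above both splenic groups, by 1.56 (SE 0.18, limma adjusted p = 1.99e-04) over splenic CD45+. The splenic groups were 0.52 (SE 0.20, limma adjusted p = 0.0545) apart, short of the threshold. In each comparison in which Ndufaf5 and Ndufaf6 were called, the call held in every fit that left out 1 library. Ndufaf1, which works in the membrane-arm assembly machinery, had 10.1, 11.4, 11.5 and 11.2 FPKM in tumor CD45+, 13.5, 29.3 and 10.3 FPKM in splenic CD45+ and 11.4, 12.3 and 11.6 FPKM in splenic CD45-, with overlap of the 3 groups on the deposited scale and no call there. On the globin-free scale Ndufaf1 was called lower in tumor CD45+ over splenic CD45+ and over splenic CD45-, at -0.96 and -0.79 (limma adjusted p = 0.0255 and 8.26e-05), though the change over splenic CD45- was 0.51 when scaled to a common sum.

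**Figure D4:**
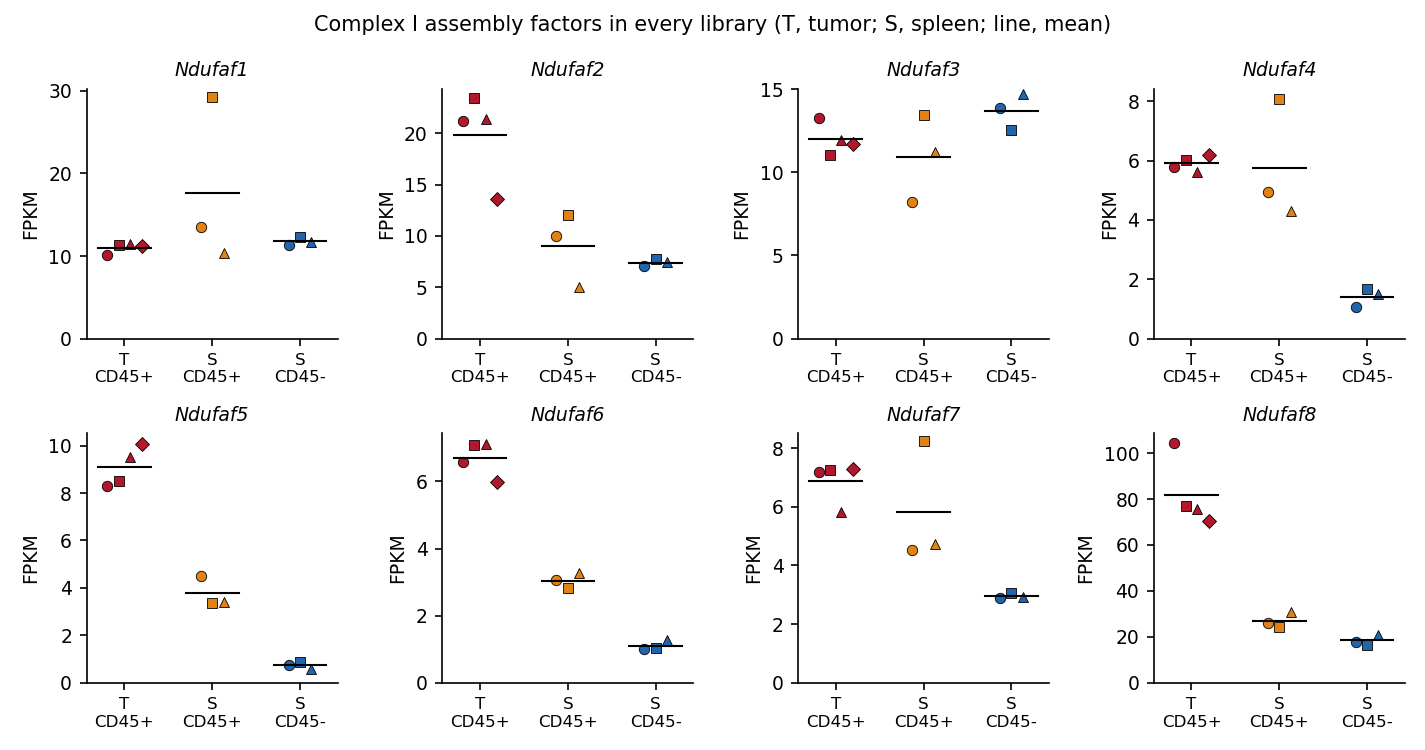
Each panel plots 1 complex I assembly factor in FPKM on a vertical axis that starts at 0, with a point per library and a line at the group mean, tumor CD45+ left, splenic CD45+ middle and splenic CD45- right. Ndufaf5 and Ndufaf6 stand in 3 separate steps, Ndufaf4 is low only in splenic CD45- (1.07 to 1.66 FPKM), and Ndufaf8 is high only in tumor CD45+ (70.4 to 104.3 FPKM).

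Complex II is the only complex with no subunit encoded in mitochondrial DNA and also an enzyme of the citric acid cycle, and its 4 genes did not run together. Sdhb, the iron-sulfur subunit, had 182, 154, 153 and 129 FPKM in tumor CD45+, 69.3, 85.1 and 61.3 FPKM in splenic CD45+ and 62.0, 55.9 and 53.8 FPKM in splenic CD45-. It was higher in tumor CD45+ than in either splenic group with no overlap, by 1.10 (SE 0.18, limma adjusted p = 1.10e-03) over splenic CD45+ and 1.41 (SE 0.12, limma adjusted p = 2.89e-06) over splenic CD45-. Both calls held on the globin-free scale (0.63 and 0.69). Sdha, the flavin-bearing subunit that oxidises succinate, had 51.0, 59.98, 59.98 and 63.6 FPKM in tumor CD45+, 67.0, 105 and 57.4 FPKM in splenic CD45+ and 44.4, 49.7 and 51.5 FPKM in splenic CD45-. Tumor CD45+ values overlapped those of splenic CD45+, at -0.33 (SE 0.22, limma adjusted p = 0.218). Against splenic CD45- the call was 0.27 on the deposited scale (limma adjusted p = 0.0275) and -0.46 on the globin-free scale (limma adjusted p = 6.93e-03), a change of sign, and the deposited call held in 3 of 7 fits that left out 1 library. Sdhb was at 129 to 182 FPKM in the tumor CD45+ libraries, where Sdha was at 51.0 to 63.6 FPKM, whereas in splenic CD45+ libraries Sdhb was at 61.3 to 85.1 FPKM and Sdha at 57.4 to 105 FPKM.

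Sdhc and Sdhd encode the membrane anchors of complex II. Sdhc had 87.8, 98.2, 95.2 and 93.1 FPKM in tumor CD45+, 57.6, 89.6 and 51.8 FPKM in splenic CD45+ and 70.8, 66.4 and 57.8 FPKM in splenic CD45-. Sdhd had 149, 127, 126 and 136 FPKM in tumor CD45+, 64.8, 118 and 72.1 FPKM in splenic CD45+ and 56.1, 54.7 and 59.9 FPKM in splenic CD45-. Tumor CD45+ overlapped splenic CD45+ for Sdhc, through replicate 2, and lay just above it for Sdhd. Both were called higher in tumor CD45+ over splenic CD45+ on the deposited scale, Sdhc at 0.53 (SE 0.20, limma adjusted p = 0.0499) and Sdhd at 0.70 (SE 0.22, limma adjusted p = 0.0231), and neither was on the globin-free scale. The call of Sdhc held in 1 of 7 fits that left out 1 library, the one without splenic CD45+ replicate 2, and that of Sdhd in 3 of 7. In tumor CD45+ over splenic CD45-, Sdhd rose by 1.22 (SE 0.09, limma adjusted p = 8.53e-07) and also on the globin-free scale, by 0.50, whereas Sdhc was -0.20 there (limma adjusted p = 0.0967). In splenic CD45+ over splenic CD45- the changes of Sdha, Sdhb, Sdhc and Sdhd were 0.60, 0.31, -0.01 and 0.52 (limma adjusted p = 0.0785, 0.206, 0.982 and 0.117), short of the threshold, as they were on the globin-free scale.

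Complex III, which hands electrons from ubiquinol to cytochrome c, gave few higher calls: 2 of 9 in tumor CD45+ over splenic CD45+ (globin-free 1, with 2 lower) and 3 of 9 in tumor CD45+ over splenic CD45-, with 2 lower (globin-free 0 higher and 7 lower). Uqcrq, a small subunit of the membrane part, had 108, 73.4, 75.0 and 80.7 FPKM in tumor CD45+, 37.5, 54.8 and 38.1 FPKM in splenic CD45+ and 58.0, 42.7 and 53.0 FPKM in splenic CD45-. It was above splenic CD45+ in every tumor CD45+ library, by 0.94 (SE 0.21, limma adjusted p = 4.69e-03), and by 0.70 (SE 0.16, limma adjusted p = 2.20e-03) over splenic CD45-; over splenic CD45- the globin-free change was -0.02. Cyc1, which carries the haem of cytochrome c1, had 97.1, 93.7, 87.0 and 86.5 FPKM in tumor CD45+, 79.8, 125 and 69.8 FPKM in splenic CD45+ and 143, 119 and 104 FPKM in splenic CD45-. It was lower in tumor CD45+ than in splenic CD45-, at -0.41 (SE 0.11, limma adjusted p = 8.33e-03), with no overlap, though at 0.24 when scaled to a common sum, and its change against splenic CD45+ was 0.04 (limma adjusted p = 0.885). Uqcrh, the hinge protein that helps cytochrome c dock, had the highest mean of the complex, with 632, 510.1, 532 and 564 FPKM in tumor CD45+, 504, 706 and 503 FPKM in splenic CD45+ and 641, 577 and 917 FPKM in splenic CD45-. Its groups overlapped in each comparison on the deposited scale.

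Cytochrome c itself, encoded by Cycs, carries electrons between complexes III and IV and also triggers caspase activation once released from mitochondria. Cycs had 93.7, 98.0, 92.1 and 98.2 FPKM in tumor CD45+, 38.8, 63.1 and 36.5 FPKM in splenic CD45+ and 34.8, 33.6 and 44.7 FPKM in splenic CD45-. Every tumor CD45+ library was above every splenic library, by 1.08 (SE 0.20, limma adjusted p = 2.40e-03) over splenic CD45+ and 1.33 (SE 0.11, limma adjusted p = 1.94e-06) over splenic CD45-, with globin-free changes of 0.62 and 0.61 (limma adjusted p = 0.0204 and 8.13e-04). The splenic groups overlapped, at 0.25 (SE 0.26, limma adjusted p = 0.439).

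Complex IV contains several subunits that exist as alternative genes, and the members with the greatest changes of all were among them. Of 17 complex IV genes tested, 9 were called higher and 1 lower in tumor CD45+ over splenic CD45+ (globin-free 4 and 2), and in tumor CD45+ over splenic CD45-, 9 higher and 3 lower (globin-free 6 and 8). The higher calls include Cox4i2, Cox7a1 and Ndufa4l2, and over splenic CD45- also Cox6a2, which passed the filter through the tumor libraries where they were high. Of the constitutive subunits, Cox5a, which lies on the matrix side, had 289.8, 295, 288 and 264 FPKM in tumor CD45+, 145, 191 and 112 FPKM in splenic CD45+ and 91.7, 82.4 and 69.9 FPKM in splenic CD45-. Its groups stood in 3 steps without overlap, with changes of 0.96 (SE 0.20, limma adjusted p = 3.38e-03), 1.80 (SE 0.10, limma adjusted p = 2.01e-07) and 0.84 (SE 0.24, limma adjusted p = 0.0202) for tumor CD45+ over splenic CD45+, tumor CD45+ over splenic CD45- and splenic CD45+ over splenic CD45-; the last was not called on the globin-free scale (0.58, limma adjusted p = 0.0546) and held in 3 of 6 fits that left out 1 library. Cox7c, the member with the highest mean of the complex, had 1429.5, 985, 1031 and 1089.8 FPKM in tumor CD45+, 538, 955 and 473 FPKM in splenic CD45+ and 735, 589 and 884 FPKM in splenic CD45-. Tumor CD45+ lay above both splenic groups in every library, with changes of 0.85 and 0.63 deposited (limma adjusted p = 0.0251 and 7.82e-03), and neither call was made on the globin-free scale (0.38 and -0.11). The call over splenic CD45+ held in 3 of 7 fits that left out 1 library, and was lost without splenic CD45+ replicate 1 or 3 or tumor CD45+ replicate 1 or 4.

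Cox6b2 was the member that fell furthest. It encodes the form of subunit VIb known from testis, and Cox6b1 encodes the general form. Cox6b2 had 3.16, 1.11, 1.28 and 1.54 FPKM in tumor CD45+, 72.0, 157 and 56.2 FPKM in splenic CD45+ and 106, 84.7 and 91.3 FPKM in splenic CD45-. Every tumor CD45+ value was below 4 FPKM and every splenic value, of either gate, above 56 FPKM. The changes were -5.03 (SE 0.38, limma adjusted p = 2.10e-05) and -5.15 (SE 0.22, limma adjusted p = 2.43e-08) for tumor CD45+ over splenic CD45+ and over splenic CD45-. The splenic groups overlapped, at -0.12 (SE 0.37, limma adjusted p = 0.807). Cox6b1 had 1048, 844, 897 and 821 FPKM in tumor CD45+, 488, 686 and 419.9 FPKM in splenic CD45+ and 583, 530.5 and 541 FPKM in splenic CD45-. It rose on the deposited scale in tumor CD45+ over splenic CD45+ and over splenic CD45-, by 0.79 and 0.70 (limma adjusted p = 0.0101 and 2.36e-04), and was not called on the globin-free scale (0.32 and -0.03). Of the pair's summed FPKM, Cox6b2 held 0.190% ± 0.0773 in tumor CD45+ (SD, n = 4), 14.4% ± 3.69 in splenic CD45+ (SD, n = 3) and 14.5% ± 0.828 in splenic CD45- libraries (SD, n = 3). For either tumor comparison the exact two-sided permutation test of that share gave p = 0.0571, the smallest that 4 libraries against 3 allow. In each of 7 fits that left out 1 library, Cox6b2 was called lower in both tumor comparisons, at -5.33 to -4.60 against splenic CD45+ and -5.36 to -5.03 against splenic CD45-. The erythroid marker list, at 58.9 to 244.8 FPKM in tumor CD45+ and 6729 to 12927 FPKM in the splenic libraries, moved with Cox6b2 in the tumor comparisons. Between the splenic groups it did not, with erythroid sums of 6729 to 7371 FPKM in CD45+ and 12323 to 12927 FPKM in CD45- libraries. The part of this list in the result was not tested.

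Cox7a1 moved the opposite way. It encodes the form of subunit VIIa typical of heart and skeletal muscle, Cox7a2 the form found in most tissues, and Cox7a2l a related protein that joins complexes III and IV. Cox7a1 had 32.5, 27.3, 20.5 and 21.0 FPKM in tumor CD45+, 1.51, 0 and 0.67 FPKM in splenic CD45+ and 0.71, 0 and 0.63 FPKM in splenic CD45-. Tumor CD45+ was wholly above the splenic libraries. The changes were 4.00 (SE 0.32, limma adjusted p = 2.71e-05) over splenic CD45+ and 4.20 (SE 0.22, limma adjusted p = 1.05e-07) over splenic CD45-, and every splenic library was at or below 1.51 FPKM. Cox7a1 thus passed the filter through the tumor libraries, where it was high, and could hardly be called other than higher. Cox7a2 had 384, 292, 294 and 283 FPKM in tumor CD45+, 219, 295 and 200.3 FPKM in splenic CD45+ and 378, 338 and 412 FPKM in splenic CD45-. Cox7a2l had 238, 220.2, 207 and 200.03 FPKM in tumor CD45+, 137, 85.4 and 118 FPKM in splenic CD45+ and 107, 95.2 and 99.2 FPKM in splenic CD45-. Cox7a2 was not called between tumor CD45+ and splenic CD45+ on the deposited scale (0.40, limma adjusted p = 0.102), whereas Cox7a2l was called higher there (0.95, limma adjusted p = 2.86e-03) but not on the globin-free scale (0.48, limma adjusted p = 0.068). Over splenic CD45-, Cox7a2l rose on both scales, by 1.10 and 0.37 (limma adjusted p = 2.31e-06 and 1.40e-03). Cox7a2l held 39.1% ± 1.92 of the sum of these 3 genes in tumor CD45+ (SD, n = 4), 32.5% ± 8.80 in splenic CD45+ (SD, n = 3) and 21.1% ± 1.50 in splenic CD45- libraries (SD, n = 3); in splenic CD45+ replicate 2 it was 22.4%, against 38.3 and 36.9% in the other libraries of that group.

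Among the other alternative pairs, Ndufa4l2 had 20.1, 6.17, 7.26 and 6.61 FPKM in tumor CD45+, 0.12, 0 and 0.22 FPKM in splenic CD45+ and 0, 0 and 0 FPKM in splenic CD45-. It is the hypoxia-induced relative of Ndufa4, a complex IV subunit that was first assigned to complex I. Ndufa4l2 rose in tumor CD45+ over splenic CD45+ by 3.15 (SE 0.37, limma adjusted p = 2.06e-04); since all splenic CD45- libraries are listed at 0, no fold is given there. Its exons overlap those of Shmt2 on the other strand over 32 bases, so reads of that stretch could belong to either gene. Ndufa4 had 633, 427, 458 and 436 FPKM in tumor CD45+, 449.6, 703 and 447 FPKM in splenic CD45+ and 771, 673 and 811 FPKM in splenic CD45-. It was called lower in tumor CD45+ than in splenic CD45-, at -0.64 (SE 0.15, limma adjusted p = 3.39e-03), though at 0.01 when scaled to a common sum. Ndufa4l2 was 1.42 to 3.08% of the pair in the tumor CD45+ libraries, 0 to 0.0492% in splenic CD45+ and 0 in splenic CD45- libraries. Cox4i2, known from lung and from hypoxic cells, had 1.40, 1.94, 1.93 and 1.65 FPKM in tumor CD45+, 0.17, 0 and 0.08 FPKM in splenic CD45+ and 0, 0 and 0.08 FPKM in splenic CD45-. The general form Cox4i1 had 1005, 781, 796 and 749 FPKM in tumor CD45+, 579.5, 722 and 432 FPKM in splenic CD45+ and 814, 665 and 599 FPKM in splenic CD45-. Cox4i2 was called higher in tumor CD45+ in both comparisons, at 1.33 and 1.41 (limma adjusted p = 4.83e-05 and 3.45e-07), yet remained under 0.25% of the pair in every library. Ndufa4l2 and Cox4i2 were below 1 FPKM in every splenic library. They were tested only through the tumor libraries, where they were high, and could hardly be called other than higher.

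Subunits VIa and VIII also have muscle forms. Cox6a2, the muscle form of subunit VIa, had 1.63, 2.00, 1.90 and 2.96 FPKM in tumor CD45+, 0.61, 0 and 3.54 FPKM in splenic CD45+ and 0, 0.1 and 0.09 FPKM in splenic CD45-. The splenic CD45+ libraries thus spanned the tumor CD45+ range, and only tumor CD45+ over splenic CD45- was called, at 1.54 (SE 0.13, limma adjusted p = 3.33e-06), in a test that the gene entered only through the tumor libraries. Exons of Cox6a2 overlap those of Itgad on the other strand over 70 bases. Itgad had a mean of 9.41 FPKM over all libraries, so reads of that stretch could belong to either gene. The general counterpart of Cox6a2, Cox6a1, had 659, 502, 512 and 580.5 FPKM in tumor CD45+, 482, 708 and 434 FPKM in splenic CD45+ and 920.5, 667 and 805 FPKM in splenic CD45-. It was lower in tumor CD45+ than in splenic CD45-, at -0.50 (SE 0.14, limma adjusted p = 9.11e-03), though at 0.15 when scaled to a common sum. Cox8a had 655, 554, 555 and 593 FPKM in tumor CD45+, 368, 613 and 426 FPKM in splenic CD45+ and 529.5, 488 and 553 FPKM in splenic CD45-, with no call on the deposited scale in any comparison. Its muscle counterpart Cox8b was at 0.33 FPKM in tumor CD45+ replicate 1 and listed at 0 in the 9 other libraries, and was not tested. Ndufa4l2, Cox7a1 and Cox4i2 were higher in tumor CD45+ libraries, as were the stromal, the epithelial, and the monocyte and macrophage lists. Stromal sums were 119.4 to 186.1 FPKM in tumor CD45+ and 0.14 to 0.43 FPKM in splenic CD45+ libraries. Epithelial sums were 310.5 to 403.3 FPKM and 0.17 to 2.37 FPKM in the same groups. Within the tumor group, replicate 1 had the lowest stromal sum and the lowest Cox4i2, but the highest Ndufa4l2 and Cox7a1. That library also had the highest epithelial and the highest monocyte and macrophage sum. Lyz2 made most of the latter, at 29160 FPKM there against 11438 to 15342 FPKM in the other tumor libraries. The rest of that list split: Csf1r, Cd68, C1qa and C1qb were highest in replicate 1, whereas Itgam, Adgre1, Mrc1 and Fcgr1 were lowest there. The part of these lists was not tested.

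**Figure D5:**
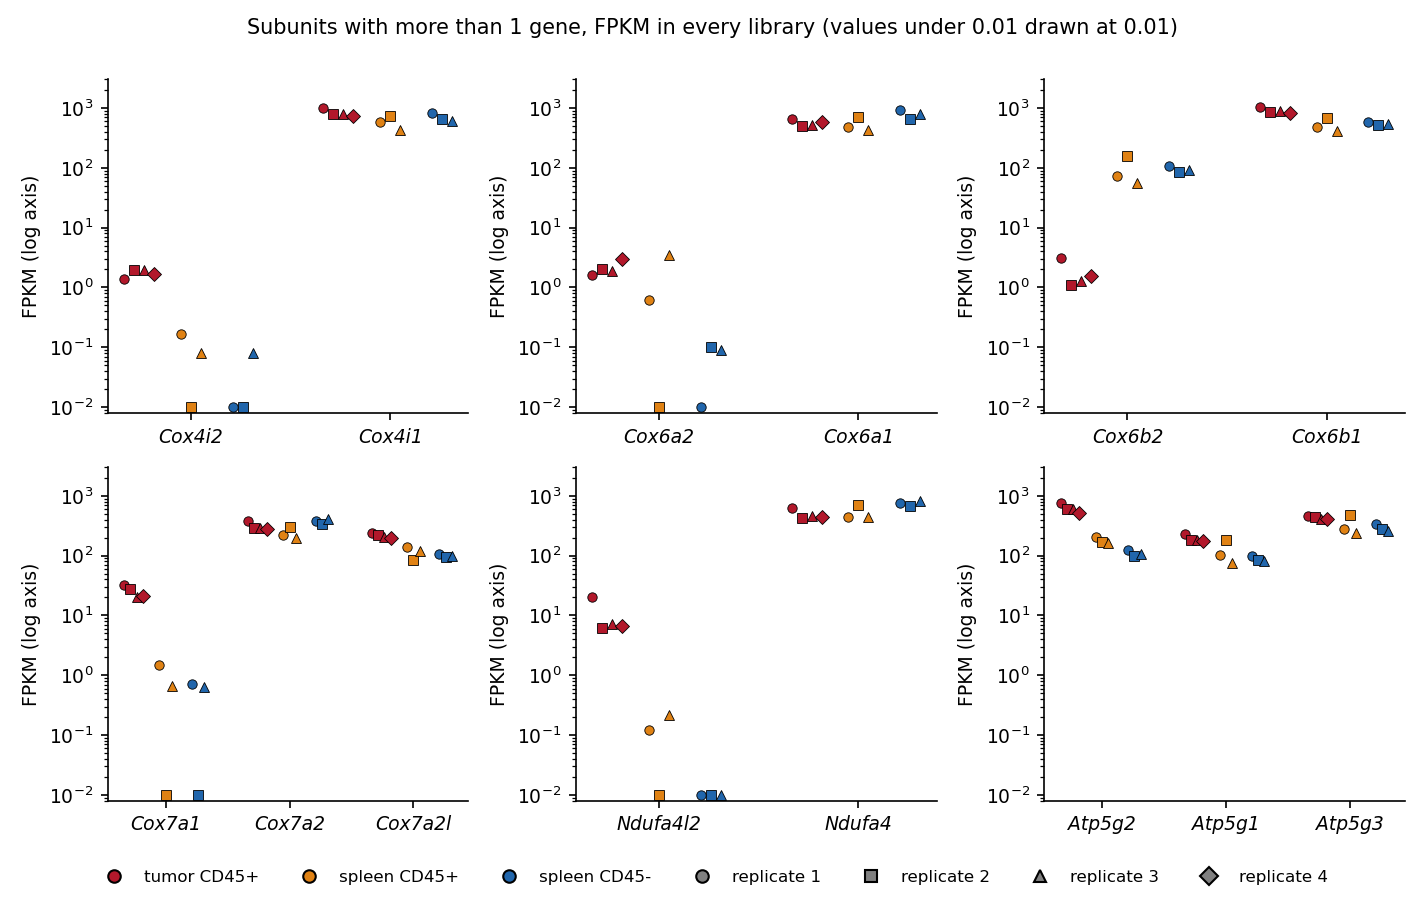
Each panel shows 1 subunit that has more than 1 gene, with FPKM in every library on a log axis; within each gene, colours mark the groups and shapes the replicates, with tumor CD45+ left, splenic CD45+ middle and splenic CD45- right. Values under 0.01 are drawn at 0.01. Cox6b2 sits at 1.11 to 3.16 FPKM in tumor CD45+ and at 56.2 to 157 FPKM in the splenic libraries, while Cox7a1 sits at 20.5 to 32.5 FPKM in tumor CD45+ and at or below 1.51 FPKM in the splenic libraries.

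Complex V has 17 members, all tested. Of these, 7 were called higher and 0 lower in tumor CD45+ over splenic CD45+ (globin-free 1 and 3), and in tumor CD45+ over splenic CD45-, 9 higher and 2 lower (globin-free 2 and 9). The 2 lower calls, Atp5b and Atp5h, encode the catalytic beta subunit and a subunit of the peripheral stalk, at -0.47 (SE 0.11, limma adjusted p = 2.33e-03) and -0.52 (SE 0.11, limma adjusted p = 2.00e-03), but at 0.18 and 0.12 when scaled to a common sum. The greatest change was in the proton-carrying ring. Atp5g1, Atp5g2 and Atp5g3 encode the same mature subunit c, joined to different import sequences. Atp5g2 had 748, 591, 599.9 and 524 FPKM in tumor CD45+, 201, 167 and 164 FPKM in splenic CD45+ and 123, 100.2 and 105 FPKM in splenic CD45-. Every tumor CD45+ library was more than 2 times any splenic library. Atp5g2 rose by 1.78 (SE 0.17, limma adjusted p = 6.99e-05) over splenic CD45+ and 2.48 (SE 0.13, limma adjusted p = 1.17e-07) over splenic CD45-. Both calls held on the globin-free scale, at 1.32 and 1.75, and in each of 7 fits that left out 1 library.

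The other genes of subunit c differed less between groups. Atp5g3 had 458, 434, 415 and 415 FPKM in tumor CD45+, 281, 482 and 243 FPKM in splenic CD45+ and 335, 283 and 262 FPKM in splenic CD45-. Its change in tumor CD45+ over splenic CD45+ was 0.42 (SE 0.24, limma adjusted p = 0.154). Over splenic CD45- it was 0.56 deposited (limma adjusted p = 7.06e-04) and -0.17 globin-free (limma adjusted p = 0.101). Atp5g1 had 230.0, 185, 183 and 176 FPKM in tumor CD45+, 102, 180.0 and 75.6 FPKM in splenic CD45+ and 97.5, 84.7 and 81.3 FPKM in splenic CD45-. Its deposited changes were 0.78 and 1.13 (limma adjusted p = 0.0421 and 1.17e-05), the first of which was not called on the globin-free scale (0.31) and held in 1 of 7 fits that left out 1 library, the one without splenic CD45+ replicate 2. Of the summed FPKM of the 3 genes, Atp5g2 held 49.5% ± 2.14 in tumor CD45+ (SD, n = 4), 29.5% ± 8.12 in splenic CD45+ (SD, n = 3) and 22.3% ± 1.01 in splenic CD45- libraries (SD, n = 3). Atp5g3 held 34.9% ± 2.27 in tumor CD45+, 52.2% ± 5.27 in splenic CD45+ and 59.7% ± 1.11 in splenic CD45- libraries, so the leading gene of subunit c was Atp5g2 in the tumor and Atp5g3 in the spleen. Each of these shares separated tumor CD45+ from either splenic group completely (exact two-sided permutation p = 0.0571, the smallest possible). Since a share within a library does not change with the globin total, this contrast is the same on both scales.

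Atp5j2, a small subunit of the membrane part and the member of complex V with the highest mean, had 1245, 945, 944 and 918 FPKM in tumor CD45+, 537, 779.7 and 492 FPKM in splenic CD45+ and 949, 781 and 1028 FPKM in splenic CD45-. It was called higher in tumor CD45+ over splenic CD45+, at 0.77 (SE 0.21, limma adjusted p = 0.0134), and not on the globin-free scale (0.30). The ATP synthase is restrained by an inhibitor, the product of Atpif1, which is known in zebrafish for its part in haem synthesis; it is not among the 95 genes. Atpif1 had 223, 169, 171 and 204 FPKM in tumor CD45+, 339, 640.4 and 457 FPKM in splenic CD45+ and 782, 769 and 1147 FPKM in splenic CD45-. The 3 groups did not overlap, in the reverse of the order of Ndufaf5. The changes were -1.28 (SE 0.23, limma adjusted p = 0.00202) in tumor CD45+ over splenic CD45+, -2.21 (SE 0.17, limma adjusted p = 1.36e-06) over splenic CD45- and -0.93 (SE 0.29, limma adjusted p = 0.0259) in splenic CD45+ over splenic CD45-.

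Promoter sequences are shown for alternative genes of 1 subunit described above: Cox6b2 and its general form Cox6b1, Cox7a1, and Atp5g2 and Atp5g3. Each runs 5′ to 3′ over the 250 bases before the transcript start, from RefSeq on GRCm38.p6. Capitals mark matches, on either strand, to the letters searched: GCGCA and GCGC with any 1 base between them, bound by NRF1, CCGGAAG, bound by ETS factors including GABP, AGATAA, bound by GATA factors, and ACGTG, a core shared by hypoxia-inducible factors and others. The Cox6b2 window (chr7:4753095-4753344, minus strand) holds none of the 4, and the Cox6b1 window (chr7:30626115-30626364, minus strand) holds the ETS letters once.
Cox6b2: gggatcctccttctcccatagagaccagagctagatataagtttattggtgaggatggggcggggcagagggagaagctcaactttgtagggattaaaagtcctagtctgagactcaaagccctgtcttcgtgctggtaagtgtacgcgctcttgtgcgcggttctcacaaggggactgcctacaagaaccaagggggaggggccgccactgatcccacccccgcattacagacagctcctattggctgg
Cox6b1: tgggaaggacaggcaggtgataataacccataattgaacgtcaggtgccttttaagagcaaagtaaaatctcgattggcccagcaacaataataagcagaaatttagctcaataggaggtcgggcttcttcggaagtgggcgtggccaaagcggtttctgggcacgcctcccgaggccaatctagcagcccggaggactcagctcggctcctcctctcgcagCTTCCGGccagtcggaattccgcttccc
The Cox7a1 window (chr7:30183921-30184170, plus strand) holds the GATA letters 2 times.
Cox7a1: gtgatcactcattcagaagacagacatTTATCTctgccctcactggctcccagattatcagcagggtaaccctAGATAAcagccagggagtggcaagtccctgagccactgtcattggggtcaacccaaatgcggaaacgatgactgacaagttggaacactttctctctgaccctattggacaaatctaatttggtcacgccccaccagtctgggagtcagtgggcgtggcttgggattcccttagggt
The Atp5g2 window (chr15:102671048-102671297, minus strand) holds the NRF1 letters once and ACGTG once, whereas the Atp5g3 window (chr2:73911327-73911576, minus strand) holds the GATA letters once and CACGTG, which reads as ACGTG on both strands.
Atp5g2: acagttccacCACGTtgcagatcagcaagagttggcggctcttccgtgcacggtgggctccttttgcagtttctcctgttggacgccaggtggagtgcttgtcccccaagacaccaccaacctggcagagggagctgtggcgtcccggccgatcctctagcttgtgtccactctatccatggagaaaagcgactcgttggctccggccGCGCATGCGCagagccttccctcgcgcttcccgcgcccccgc
Atp5g3: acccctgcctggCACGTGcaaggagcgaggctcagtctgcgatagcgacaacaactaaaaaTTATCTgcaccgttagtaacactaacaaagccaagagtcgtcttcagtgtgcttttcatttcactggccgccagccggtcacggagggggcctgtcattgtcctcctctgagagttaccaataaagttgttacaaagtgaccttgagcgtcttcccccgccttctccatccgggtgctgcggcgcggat

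Promoters of 77 of the members were matched, 82 windows in all, and compared with all 32851 windows of the same length in the table. The NRF1 letters were in 15 of 82 member windows, 18.3%, against 3.74% of all windows, and the ETS letters in 14, 17.1%, against 6.91%. The GATA letters were in 6, 7.32%, against 9.99%, and ACGTG in 17, 20.7%, against 16.6%. A match describes the letters alone.

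Genes that serve the chain without being members were followed as lists, with the same shares of all genes called as given above. The assembly factors of complex IV had 14 of 24 called higher and 2 lower in tumor CD45+ over splenic CD45+ (globin-free 7 and 5), 16 higher and 2 lower in tumor CD45+ over splenic CD45- (globin-free 14 and 6), and 8 of 22 higher and 0 lower in splenic CD45+ over splenic CD45- (globin-free 7 of 24 and 1). Cox16, one of the factors that help mature the copper-bearing subunit, averaged 42.8 ± 6.31 FPKM in tumor CD45+ (SD, n = 4), 12.7 ± 1.51 FPKM in splenic CD45+ (SD, n = 3) and 5.72 ± 0.928 FPKM in splenic CD45- libraries (SD, n = 3). Cox11, which helps insert copper, ran the other way, at 3.62 ± 0.338 FPKM in tumor CD45+, 16.0 ± 7.46 FPKM in splenic CD45+ and 17.8 ± 2.55 FPKM in splenic CD45- libraries. Cox16 rose by 1.67 and Cox11 fell by 1.79 in tumor CD45+ over splenic CD45+ (limma adjusted p = 8.61e-05 and 7.18e-04).

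The remaining assembly factors of complex I, outside the Ndufaf name, had 5 of 11 called higher and 2 lower in tumor CD45+ over splenic CD45+ (globin-free 3 and 2) and 9 higher and 2 lower in tumor CD45+ over splenic CD45- (globin-free 6 and 3). In splenic CD45+ over splenic CD45-, 6 were called higher and 1 lower on both scales. Tmem126a, one of them, averaged 63.1 ± 4.15 FPKM in tumor CD45+ (SD, n = 4), 14.0 ± 3.86 FPKM in splenic CD45+ (SD, n = 3) and 2.75 ± 0.199 FPKM in splenic CD45- libraries (SD, n = 3). It rose in all 3 comparisons, as Ndufaf5 and Ndufaf6 did, by 2.13, 4.09 and 1.97 (tumor CD45+ over splenic CD45+, tumor CD45+ over splenic CD45-, splenic CD45+ over splenic CD45-). The assembly lists of complexes II, III and V had 2 of 4, 3 of 5 and 2 of 3 called higher and 0 lower in tumor CD45+ over splenic CD45+; on the globin-free scale 2, 1 and 1 were called higher and 1, 0 and 1 lower.

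ATP leaves mitochondria through carriers and pores, and all 6 genes of that list were called higher in tumor CD45+ over splenic CD45- (globin-free 5 higher and 1 lower). In tumor CD45+ over splenic CD45+, 4 were called higher (globin-free 3), and in splenic CD45+ over splenic CD45-, 2 were on both scales, with 0 lower. Slc25a4, an exchanger of ADP for ATP across the inner membrane, averaged 189.6 ± 4.52 FPKM in tumor CD45+ (SD, n = 4), 34.8 ± 12.2 FPKM in splenic CD45+ (SD, n = 3) and 4.96 ± 0.155 FPKM in splenic CD45- libraries (SD, n = 3). It rose by 2.48, 5.0 and 2.52 in the 3 comparisons taken in the same order as for Tmem126a (limma adjusted p = 9.06e-05, 5.23e-11 and 0.00112). Slc25a5, another exchanger of the same family, averaged 407.7 ± 35.9 FPKM in tumor CD45+, 300.6 ± 101 FPKM in splenic CD45+ and 180.8 ± 7.11 FPKM in splenic CD45- libraries.

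The citric acid cycle, which feeds NADH and succinate to the chain, had 3 of 15 genes called higher and 2 lower in tumor CD45+ over splenic CD45+ (globin-free 0 and 6), 8 higher and 4 lower in tumor CD45+ over splenic CD45- (globin-free 6 and 7), and 5 higher and 0 lower in splenic CD45+ over splenic CD45- (globin-free 4 and 0). Ubiquinone synthesis had 4 of 13 higher and 0 lower in tumor CD45+ over splenic CD45+ (globin-free 1 and 2), 11 higher and 1 lower in tumor CD45+ over splenic CD45- (globin-free 9 and 2), and 6 of 12 higher and 0 lower in splenic CD45+ over splenic CD45- (globin-free 5 of 13 and 0).

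Regulators of mitochondrial biogenesis split, with 2 of 12 called higher and 3 lower in tumor CD45+ over splenic CD45+ (globin-free 0 and 7). There were 7 higher and 5 lower in tumor CD45+ over splenic CD45- (globin-free 5 and 5), and 8 higher and 0 lower in splenic CD45+ over splenic CD45- (globin-free 7 and 1). Nrf1, a transcription factor of nuclear respiratory chain genes, averaged 11.9 ± 0.329 FPKM in tumor CD45+ (SD, n = 4), 36.5 ± 11.2 FPKM in splenic CD45+ (SD, n = 3) and 46.5 ± 0.737 FPKM in splenic CD45- libraries (SD, n = 3), and fell by 1.50 and 1.88 in the tumor comparisons (limma adjusted p = 4.01e-04 and 6.80e-09). Esrra, a nuclear receptor that acts on the same genes, averaged 21.1 ± 0.531 FPKM in tumor CD45+, 8.63 ± 4.51 FPKM in splenic CD45+ and 1.11 ± 0.324 FPKM in splenic CD45- libraries, and rose by 1.32 and 3.40 (limma adjusted p = 0.00801 and 2.99e-09); the first of these was not called on the globin-free scale.

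Genes of mitophagy, the removal of mitochondria, had 3 of 9 called higher and 5 lower in tumor CD45+ over splenic CD45+ (globin-free 3 and 6), 3 higher and 6 lower in tumor CD45+ over splenic CD45- on both scales, and 2 higher and 3 lower in splenic CD45+ over splenic CD45- (globin-free 2 and 4). Bnip3l, known in mice for clearing mitochondria from reticulocytes, averaged 51.3 ± 8.51 FPKM in tumor CD45+ (SD, n = 4), 227 ± 77.9 FPKM in splenic CD45+ (SD, n = 3) and 294 ± 49.0 FPKM in splenic CD45- libraries (SD, n = 3). It fell by 2.08 and 2.50 in the tumor comparisons (limma adjusted p = 2.19e-04 and 2.94e-07). Its hypoxia-induced relative Bnip3 averaged 169 ± 11.4 FPKM in tumor CD45+, 4.25 ± 2.42 FPKM in splenic CD45+ and 0.287 ± 0.172 FPKM in splenic CD45- libraries, and rose by 5.15 and 7.05 (limma adjusted p = 9.87e-06 and 6.73e-11); it entered the second of these comparisons only through the tumor libraries. The erythroid list was lower and the monocyte and macrophage list higher in the same tumor libraries, and their part in these changes was not tested.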

How the data were processed

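FPKM values per RefSeq transcript model were read from the table of each of the 10 libraries, as the authors deposited them; that the unit is FPKM was inferred from the values, since no header names it. Per the submitters' processing notes, the build is GRCm38.p6. Aligner, counting tool, library kit and strand setting: not given in the sources used here. RNA extraction with TRIZOL and library preparation were done by a sequencing company, per the labels' protocols. Of 61685 models, 60167 were matched to a symbol by the RefSeq gene table and 1518 were not; 1843 numbered copies of models were summed with the rest, giving 17603 genes, and the 95 members rest on 188 models. Of 22 further symbols that match the naming rule without a value, 19 are pseudogenes; Ndufb1, Cox7b2 and Cox8c were not analysed here. Ndufb4b and Cox8b did not reach 1 FPKM in 3 libraries of any comparison and were not tested, and Ndufb4, Ndufb4b and Ndufb4c are near-identical copies among which reads may be split.

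Values were compared as log2(FPKM + 1), for genes that reached 1 FPKM in 3 or more libraries of the comparison, by limma 3.58.1 with its trend option in R 4.3.3, with no covariate, Benjamini-Hochberg adjustment over all genes tested and a threshold of 0.05. The fit was tested on values simulated for the genes that had passed the filter in the deposited data. The filter itself was not tested. Summaries used Python 3.11.15, numpy 2.4.6, pandas 2.3.3 and scipy 1.17.1, and figures matplotlib 3.10.9. The globin-free scale leaves out 12 globin genes and scales the remainder to 1000000. Alternatives were other scalings, pseudocounts of 0.1 and 5, no filter, 1 fit over all groups, a replicate block and leaving out each library in turn, which kept the gene set of the full fit. Depth was estimated from the FPKM step that 1 fragment makes and is approximate, so no counting interval is given. Named genes are, per comparison, the 4 called members with the largest change in each direction; per complex, the member with the highest mean and the called member with the smallest adjusted p; genes of subunits with alternative forms; and Cycs, Cyc1, the Sdh genes and the inhibitor of complex V. Ndufaf1, Ndufv2, Atp5b, Atp5h and the genes given values from the pathway lists were named after their values were seen. The members and all lists were chosen with earlier results of these data known.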

Additional observations from a re-analysis of the deposited data

Results flagged for a closer look

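In the 4 tumor CD45+ libraries, 17 of 93 members and 5 of 20 summaries had 1 library farther from the others than Dixon's 95% critical value for 4 values allows, where chance flags about 1 in 20 groups. The value given is the gap between that library and its nearest neighbour as a share of the group's whole range. Replicate 1 was the high library in 16 of the 17 members, and its globin share, at a ratio of 0.992, was high as well. The share of all genes flagged in this way is not given, so the count does not compare the members with other genes. Replicate 1 stood apart beyond the members too. Its pairs had a median chi-square per gene of 12.6 to 13.3, against 0.720 to 1.56 among replicates 2 to 4. Among complex I subunits the ratios were 0.877 for Ndufa13, 0.901 for Ndufa2, 0.903 for Ndufa7, 0.952 for Ndufb11, 0.831 for Ndufb4c, 0.848 for Ndufb7, 0.86 for Ndufb9, 0.884 for Ndufc2 and 0.851 for Ndufs7. In complexes III and IV they were 0.938 for Uqcr11, 0.889 for Cox7a2, 0.847 for Ndufa4 and 0.922 for Ndufa4l2. In complex V they were 0.833 for Atp5g1, 0.916 for Atp5j2 and 0.948 for Atp5o. Ndufaf7, an assembly factor of complex I, was the exception: replicate 3 was low, with a ratio of 0.932. The remaining summaries flagged were the members' share of the globin-free total at 0.871, their summed FPKM at 0.951, the share of Ndufa4l2 in its pair at 0.919 and the share of complex IV in the members' sum at 0.911. The changes without this library are given with each comparison above.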

How the results depend on the processing

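The number of members called moved with the scaling and with the library left out. In splenic CD45+ over splenic CD45- the deposited scale gave 8 higher and 3 lower with a median of 0.01. A common sum with globins gave 13 and 0 (median 0.39), the globin-free scale 5 and 14, trimmed-mean and median-ratio scaling 3 and 43 each (median -0.57 each), 1 fit over all groups 13 and 6, and the globin-free scale without splenic CD45+ replicate 2 gave 46 lower (median -0.45); this last setting was chosen after seeing the data. In tumor CD45+ over splenic CD45+, with 43 and 2 (median 0.53), the globin-free scale gave 21 and 11 (median 0.07), a common sum and no filter 1 lower each, the globin-free scale without splenic CD45+ replicate 2 gave 11 lower, and without tumor CD45+ replicate 1 it gave 17 and 9 (median 0.02), both chosen after seeing the data. In tumor CD45+ over splenic CD45-, with 57 and 9 (median 0.54), a common sum gave 2 lower (median 1.18), the globin-free scale 27 and 42 (median -0.19), trimmed-mean scaling 29 and 26 (median 0.02), median-ratio scaling 30 and 26 (median 0.02), and the globin-free scale without tumor CD45+ replicate 1 gave 27 and 44 (median -0.19). Leaving out 1 library gave 4 to 10 higher, 0 to 30 lower and medians of -0.23 to 0.15 in splenic CD45+ over splenic CD45-, 34 to 76 higher, 1 to 3 lower and 0.40 to 0.74 in tumor CD45+ over splenic CD45+, and 52 to 57 higher, 8 to 12 lower and 0.48 to 0.58 in tumor CD45+ over splenic CD45-. No share of all genes stands beside the counts of fits that left out a library, so they describe the members alone. The same holds for the counts of 1 fit over all groups and of the fit with no filter. Under median-ratio scaling, 2984 of 9531 genes tested were called higher and 1752 lower in splenic CD45+ over splenic CD45-. In tumor CD45+ over splenic CD45- these were 6443 and 3515 of 11182. Under fits that gave 0 lower by limma, 1 to 5 members were lower at an unadjusted p below 0.05 when a library was left out, and 0 with a common sum.

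Among the genes that the naming rule picks for each comparison, a sign turned with a call on either setting only in tumor CD45+ over splenic CD45-; turns with no call on either, such as Uqcrh at -0.32 and 0.32 with a common sum, are not listed. On the globin-free scale, and again without tumor CD45+ replicate 1, Atp5g3 was -0.17 and -0.17, Atp5j2 -0.59 and -0.66, Cox4i1 -0.47 and -0.53, Cox6b1 -0.03 and -0.07, Cox7c -0.11 and -0.19, Cox8a -0.56 and -0.58, Sdha -0.46 and -0.36, Sdhc -0.20 and -0.14, and Uqcrq -0.02 and -0.11. Under trimmed-mean and median-ratio scaling Cox8a was -0.35 and -0.35, and Sdha -0.25 and -0.24. With a common sum, Cox6a1 was 0.15, Cox7a2 0.37, Cyc1 0.24 and Ndufa4 0.01, and outside the rule Atp5b was 0.18 and Atp5h 0.12.

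Deviations of same-numbered libraries from their group means had correlations of -0.175 to 0.235. With 3 or 4 libraries a group, these cannot show whether same-numbered libraries came from the same mouse. A replicate block, which drops tumor CD45+ replicate 4, gave 7 higher and 1 lower in splenic CD45+ over splenic CD45-, 29 and 1 in tumor CD45+ over splenic CD45+, and 58 and 9 in tumor CD45+ over splenic CD45-. Shares of all genes called with this block are not given, so its counts describe the members alone. Precision rests on 3 or 4 libraries a group, of which 1 stood apart in splenic CD45+. The causes of these shifts were not tested.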
